A study of Mus musculus with 5 samples.

Results

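CpG methylation was examined at 4 genes for transcription factors of the lymphoid lineages, Ebf1, Tcf7, Gata3 and Bcl11b, in LSK cells from mouse bone marrow. The members were all CpGs inside 1 window per gene: chr11:44427001-44826000 for Ebf1 (399 kb), chr11:52062001-52101000 for Tcf7 (39 kb), chr2:9770001-9815000 for Gata3 (45 kb) and chr12:109148001-109250000 for Bcl11b (102 kb), in the mm9 numbering. Of 957 CpGs covered in at least 1 library in these windows, 853 were covered in all 5 and were analysed, out of 1030056 such CpGs on the autosomes. Ebf1 held 124 of them, Tcf7 136, Gata3 223 and Bcl11b 370.

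Lymphoid progenitors commit to the B or T lineage when a small set of transcription factors is switched on. EBF1 opens and activates the B-cell programme together with PAX5. On the T-cell side, Notch signalling in the thymus induces TCF1, the product of Tcf7, and GATA3, and BCL11B then closes off other fates and marks T-cell commitment. CpG-rich promoters are usually free of methylation even where the gene is silent, whereas CpG-poor regulatory elements tend to lose methylation only in the cells that use them. LSK cells (Lin- Sca1+ cKit+) hold blood stem cells and multipotent progenitors and lie upstream of both lineages.

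Methylation was read by enhanced reduced representation bisulfite sequencing (ERRBS), which cuts DNA with MspI at CCGG and so covers CpG-rich fragments best. The 5 libraries were 2 called targeted and 3 wild-type, all of strain C57BL/6 and all from sorted LSK cells. The titles of the 2 targeted libraries read KO while their genotype label reads +/-, and the number of targeted alleles is therefore not stated here. No age, sex or pooling is given for these libraries, and whether different animals gave them is not stated. The p-values thus describe the spread among these libraries, which may be technical. No expression was measured in these files, so the LSK label was not checked against marker genes. No mm9 annotation was used here, so exons and introns are not named. Below, per-library levels follow the order targeted 1 and 2, then wild-type 1, 2 and 3, and a difference is the targeted mean minus the wild-type mean.

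The median coverage of an autosomal CpG was 88 to 113 reads per library. In the windows it was 115.5 to 129.5 reads at Ebf1, 80 to 147 at Tcf7, 81 to 113 at Gata3 and 84.5 to 107 at Bcl11b. Targeted library 1 had the lowest of the 5 medians, taken over CpGs of every level, at Tcf7, Gata3 and Bcl11b. This library was also higher than the others at partly methylated CpGs over the whole genome, and for several results values without it are given as well. The labels describe no molecular identifiers, so intervals and limits cover counting error only.

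The sequences below are stretches of the table's promoter sequences that carry the best defined part of the pattern, the unmethylated stretches at the table's starts of Tcf7, Gata3 and Bcl11b. They are printed 5′ to 3′ on the gene's strand from the RefSeq promoter table (GRCm38.p6), in lower case, with each CpG that was covered in all 5 libraries in capitals. Because that table uses another build, its sequences were placed on mm9 by CpG spacing alone: every covered CpG in the 300 bases had to fall on a CpG of the sequence. The Gata3 and Tcf7 stretches were placed with 10 and 30 covered CpGs. For Tcf7 this was the only placement with 10 or more covered CpGs, although 1 other with fewer fits the spacing in the window. The Bcl11b stretch was placed with 3 CpGs under a looser rule, added after the data were seen, that accepts the only placement within the gene's own window. Gata3 and Bcl11b show the 250 bases before the start, and Tcf7 the 165 bases from the first ATG of the table's sequence to the base before the start. From that ATG the Tcf7 stretch holds no stop codon in frame, so it may be coding sequence inside the gene and not a promoter. Levels and distances given below for the Tcf7 start refer to the start of the table's sequence, and a promoter level was not shown for Tcf7.
Gata3, chr2:9800228-9800477, minus strand: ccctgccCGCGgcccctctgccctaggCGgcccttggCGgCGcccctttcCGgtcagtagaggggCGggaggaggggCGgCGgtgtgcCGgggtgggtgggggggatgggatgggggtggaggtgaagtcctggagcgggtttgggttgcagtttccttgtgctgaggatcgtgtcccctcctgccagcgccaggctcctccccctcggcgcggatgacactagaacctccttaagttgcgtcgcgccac
Tcf7, chr11:52096517-52096681, minus strand: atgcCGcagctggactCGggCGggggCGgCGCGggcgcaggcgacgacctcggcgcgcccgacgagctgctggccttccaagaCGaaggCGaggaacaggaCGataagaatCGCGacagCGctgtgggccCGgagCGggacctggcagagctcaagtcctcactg
Bcl11b, chr12:109241625-109241874, minus strand: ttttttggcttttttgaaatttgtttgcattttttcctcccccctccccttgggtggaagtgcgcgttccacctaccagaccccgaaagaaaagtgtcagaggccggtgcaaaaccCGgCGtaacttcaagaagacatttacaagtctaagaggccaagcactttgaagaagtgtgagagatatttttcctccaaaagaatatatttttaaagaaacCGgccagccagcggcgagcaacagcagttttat
The printed Gata3 stretch holds 19 CpGs, 10 of them covered, the Tcf7 stretch 22 with 14 covered, and the Bcl11b stretch 9 with 3 covered.

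Neither of the 2 Ebf1 promoter sequences of the table could be placed: the first had 0 placements, and the second had 2, both with fewer than 10 covered CpGs. The first has 9 CpGs and no CCGG, the site the enzyme cuts, and the second has 17 CpGs and 1 CCGG. The Bcl11b sequence has 3 CCGG sites, the Gata3 sequence 2, and the Tcf7 sequences 8 and 4. Of all 32851 promoter sequences of the table, 52.8% hold at least 1 CCGG, a palindrome that reads alike on both strands. These letter counts describe the 300 bases only.

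The placed sequence of Gata3 and the first placed sequence of Tcf7 were unmethylated in every library. Over the 10 covered CpGs of the Gata3 promoter the level was 0% and 0.133%, and 0%, 0.201% and 0.0503%. Over the 30 covered CpGs of the first Tcf7 sequence it was 0.262% and 0.348% against 0.263%, 0.279% and 0.116%. The second Tcf7 start of the table lies further downstream, closer to the edge of the unmethylated stretch. Its 12 covered CpGs had 9.75% and 8.23% against 10.6%, 9.42% and 10.4%. At Bcl11b the 3 covered CpGs had 3.25% and 0.794% against 2.86%, 7.65% and 4.93%. The ranges of the groups overlapped at each of these placed sequences. At Bcl11b and at the second Tcf7 start library 1 lay within the wild-type range and library 2 below it. At the first Tcf7 start library 1 lay within that range and library 2 above it.

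Promoters of other lymphoid genes were compared with these through 2 gene lists. Of 36 lymphoid regulators, 26 were in the promoter table, and 10 promoters of 9 genes could be placed: Ikzf1, Irf4, Lef1, Nfil3, Runx1, Runx3, Satb1, Tcf3 and Tcf12. Their mean level over libraries was 0.0518% to 0.516%, and none reached 20%. Lef1, a factor related to TCF1, had the highest level of these. Of 26 lymphoid effector genes, such as antigen receptor components, 19 were in the table and 0 could be placed. Placement needs at least 10 covered CpGs and so selects CpG-rich promoters: among all 6416 placed promoters the median level was 0.111%, and 0.966% reached 20%.

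Methylation differed more between the 4 windows than between libraries. The mean level of the covered CpGs at Ebf1 was 45.4% and 43.6% against 43.3%, 42.7% and 42.7%. At Bcl11b it was 42.3% and 41.2% against 40.3%, 40.7% and 40.7%. At Tcf7 it was 22.4% and 21.1% against 21.5%, 21.6% and 20.9%. At Gata3 it was 18.0% and 15.6% against 15.3%, 15.4% and 15.1%. The order Ebf1, Bcl11b, Tcf7, Gata3 was the same in every library, and no library of one window reached the range of the next. A window's mean depends on which CpGs the enzyme covers: coverage was dense at Gata3, with 49.6 CpGs per 10 kb, and sparse at Ebf1, with 3.11.

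**Figure D1:**
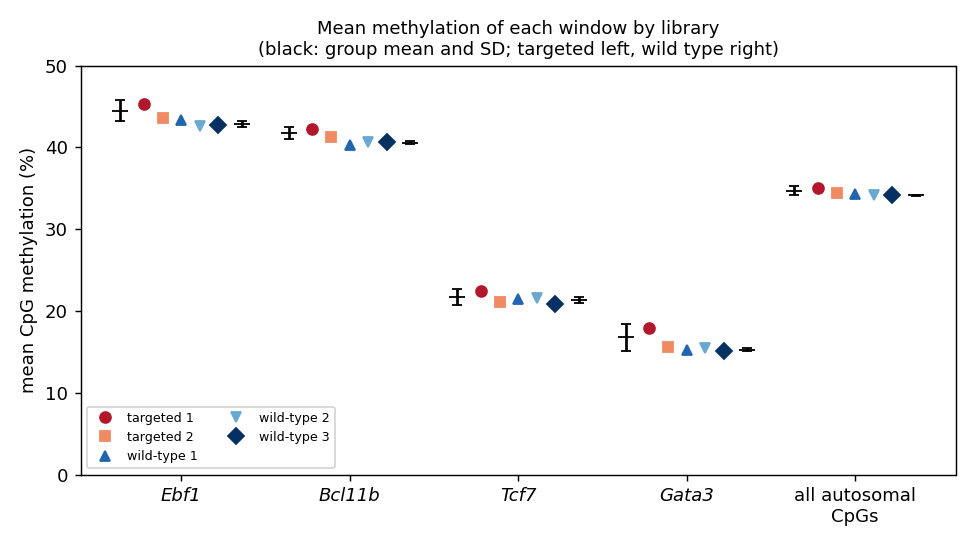
Mean CpG methylation (%) of each gene window and of all autosomal CpGs, 1 point per library, with the mean and SD of each group in black (2 targeted libraries at the left, 3 wild-type libraries at the right). The windows fall in the order Ebf1, Bcl11b, Tcf7, Gata3 in all 5 libraries, and targeted library 1 is the highest point of each window.

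The lower means of Tcf7 and Gata3 came from a larger share of unmethylated CpGs. In wild-type libraries 80.1% ± 0.259 (SD, n = 3) of the Gata3 CpGs and 73.5% ± 1.47 of the Tcf7 CpGs were under 20%. The same share was 54.1% ± 0.156 at Bcl11b and 50.0% ± 2.13 at Ebf1, against 61.3% ± 0.0227 over all autosomal CpGs. CpGs over 80% made up 8.37% ± 0.259 at Gata3 and 16.4% ± 0.425 at Tcf7, and 34.7% ± 0.869 at Bcl11b and 34.9% ± 1.23 at Ebf1. Partly methylated CpGs, from 20 to 80%, made up 11.6% ± 0.295 of the 4 windows together and 7.08% ± 0.0514 of the autosomes. In 1000 bp tiles, 18 of 69 tested tiles of the windows (26.1%) were partly methylated in the mean of all libraries, against 13.3% of all 90368 tested tiles. No test was made of these shares, since neighbouring CpGs and tiles come from the same libraries.

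Unmethylated CpGs were gathered in 10 runs, defined as at least 10 neighbouring covered CpGs under 20% in the mean of all libraries, with gaps of at most 2000 bp. The runs held 56.5% of the covered CpGs of the windows, from 39.5% at Ebf1 to 71.7% at Gata3. The longest, at Gata3, spanned 3871 bp, and 175 of the 12699 autosomal runs were longer. The placed starts of Tcf7, Gata3 and Bcl11b each lay within a run.

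**Figure D2:**
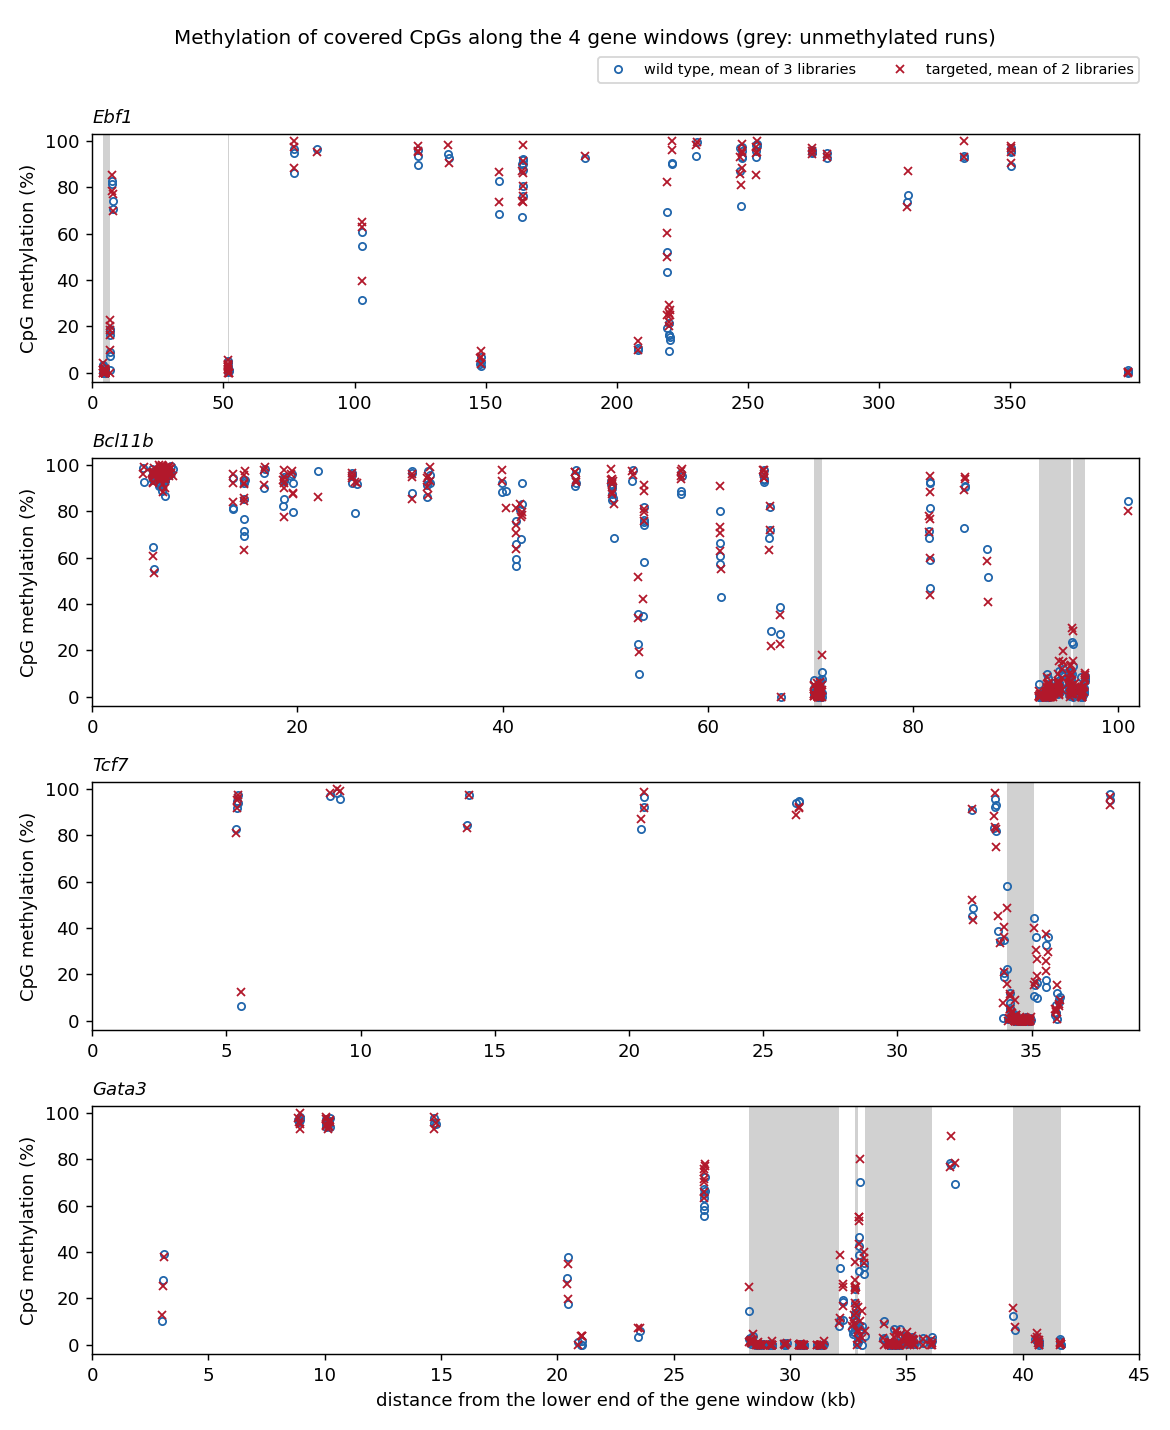
Methylation (%) of each covered CpG along the 4 windows against the distance from the lower end of the window (kb), with the mean of 3 wild-type libraries as blue circles, the mean of 2 targeted libraries as red crosses and the 10 unmethylated runs in grey. Both groups trace the same pattern of runs, methylated stretches and partly methylated CpGs.

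Ebf1, the B-lineage factor, had an unmethylated run near the lower end of its window and tiles of every level above it. This first run, chr11:44430998-44433969, spanned 2972 bp and held 37 CpGs at 1.44% to 3.15% across the 5 libraries. Its covered CpGs lay from 44430998 to 44432028 and, after a gap without covered CpGs, from 44433747 to 44433968. The 6 CpGs beyond the gap form the tile chr11:44433001-44434000, which was less clearly unmethylated, at 15.3% and 14.6% against 16.3%, 5.59% and 13.6%. A second, chr11:44478857-44479033, held 12 CpGs at 1.41% to 3.05%. At the upper end of the window the tile chr11:44821001-44822000 (3 CpGs) was also unmethylated, at 0.355% ± 0.501 (SD, n = 2) against 0.547% ± 0.475 (SD, n = 3). So was the tile chr11:44575001-44576000 (4 CpGs), at 7.29% and 5.75% against 4.21%, 4.84% and 4.64%, where the groups did not overlap (edgeR adjusted p = 0.798). Of the 15 tested tiles, 5 were under 20%, 4 partly methylated and 6 over 80%.

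The Ebf1 window also held partly methylated tiles. Neighbouring tiles at chr11:44646001-44647000 (8 CpGs) and chr11:44647001-44648000 (3 CpGs) were the lowest of them. The first was at 45.0% and 47.2%, against 40.0%, 36.2% and 36.0%. The second was at 33.0% and 25.7% against 16.5%, 19.7% and 21.5%. The groups did not overlap in either tile. The differences were 8.69 and 10.1 percentage points, and neither passed the quasi-likelihood test of edgeR (Benjamini-Hochberg adjusted p = 0.791 and 0.790). Without targeted library 1 the differences were 9.83 and 6.44 points. The second tile contains 1 CpG at 94.2% and 2 at 18.6% and 20.1% in the mean of all libraries, so its level is an average of unlike CpGs.

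The tile chr11:44529001-44530000 (3 CpGs) was at 59.0% and 51.8% against 47.2%, 50.1% and 46.6%, with an edgeR adjusted p of 0.803. The tile chr11:44434001-44435000 (4 CpGs), just above the first run, was at 81.2% and 71.4% against 80.4%, 79.2% and 70.6%. It marks the upper edge of that run, with overlapping groups. The lowest unadjusted p among Ebf1 tiles, 0.016, belonged to a methylated tile, chr11:44551001-44552000 (3 CpGs), at 96.2% and 96.3% against 94.97%, 91.8% and 88.3% (edgeR adjusted p = 0.790).

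Tcf7, which encodes TCF1, had a single compact unmethylated run. It spanned chr11:52096082-52097096 and held 84 CpGs, with a level of 1.08% to 1.498% across the 5 libraries. Methylation was higher on both sides of it. Within 1000 bp below the run, downstream of the start, 12 CpGs averaged 56.8% and 53.3% against 55.0%, 55.1% and 52.9%. Within 1000 bp above it, upstream of the placed start, 18 CpGs averaged 20.6% and 13.4% against 16.3%, 16.0% and 14.5%. The upstream shoulder was therefore the less methylated of the 2 in every library.

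Tiles at these shoulders did not separate the groups. The tile chr11:52095001-52096000 (11 CpGs) was at 55.8% and 45.7% against 47.0%, 48.2% and 47.1%. The tile chr11:52097001-52098000 (16 CpGs) was at 27.4% and 16.8% against 21.1%, 19.04% and 19.1%. In each of these 2 tiles targeted library 1 was the highest library and library 2 the lowest. Another partly methylated tile, chr11:52094001-52095000 (3 CpGs), lay between 59.7% and 62.7% in all 5 libraries, although its CpGs averaged 47.8%, 91.1% and 46.5%. The lowest unadjusted p among Tcf7 tiles was 0.133, at chr11:52088001-52089000 (3 CpGs), with 91.4% ± 1.21 (SD, n = 2) against 94.3% ± 2.45 (SD, n = 3). Further downstream 3 tiles were over 80%.

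Gata3 had the widest unmethylated territory of the 4 genes, 4 runs that together cover 8936 bp. The first, chr2:9798232-9802102, held 74 CpGs and the placed start, and its level was 0.486% to 0.926% across the libraries. The third, chr2:9803241-9806115, held 58 CpGs at 0.754% to 2.34%. The fourth, chr2:9809598-9811644, held 16 CpGs at 1.78% to 2.90%. Toward the lower end of the window, downstream of the start, 3 tiles were over 80%.

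A partly methylated stretch interrupted the Gata3 runs. It lay 1906 to 2955 bp upstream of the placed start, at chr2:9802133-9803182, between the first run and the third. Its 34 CpGs averaged 27.9% and 20.8%, against 18.9%, 16.9% and 16.8%. Single CpGs in it ranged from 0.367% to 74.0% in the mean of all libraries. The second run, chr2:9802792-9802934 (12 CpGs), lies inside this stretch and was the least clearly unmethylated of all 10, at 17.9% and 12.3% against 7.53%, 8.82% and 7.29%. The groups did not overlap, with the targeted libraries higher, over the 34 CpGs and over the 12 of the second run.

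The steps between neighbouring CpGs of this stretch were steep and shared by all libraries. The CpG at chr2:9802933 was at 3.36% in the mean of all libraries. The next, 27 bp further on at 9802960, was at 36.5%, and those at 9802971, 9802974, 9802976 and 9802988 were at 47.6%, 49.8%, 44.4% and 74.0%. The CpG at 9803003, 15 bp beyond the last of these, was back at 8.31%. At 9802988 every library was between 66.3% and 80.4%, and at 9803003 every library was between 5.21% and 13.3%. The lowest coverage of any of these CpGs in any library was 21 reads, and the 5 CpGs of the peak had at least 63.

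**Figure D3:**
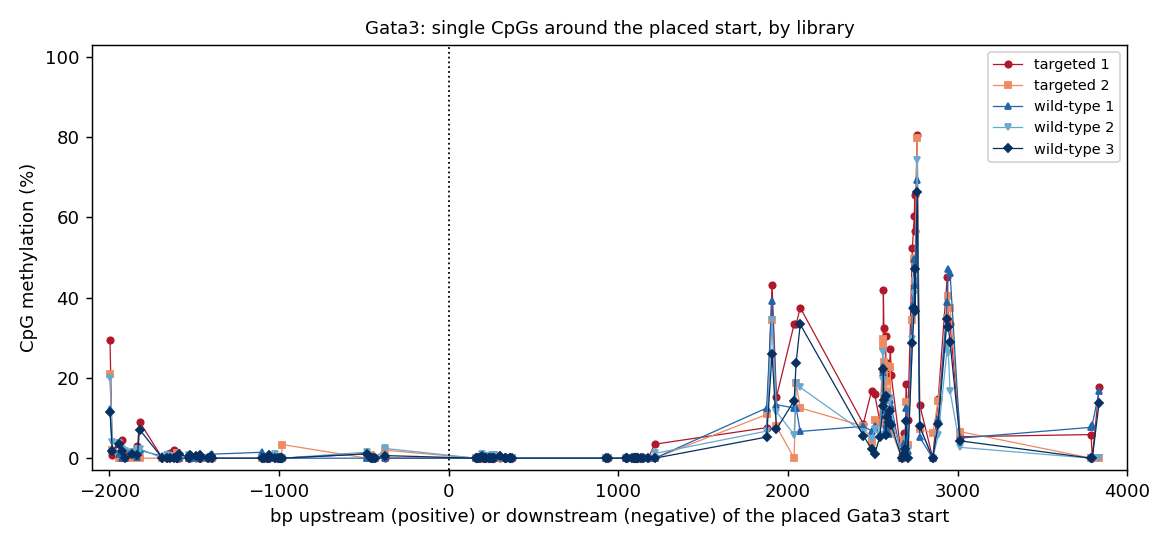
Methylation (%) of single CpGs around the placed Gata3 start (dotted line) by library, against the distance in bp, positive upstream. All 5 libraries stay near 0% around the start and rise together at 1906 to 2955 bp upstream. In that stretch targeted library 1 is above all wild-type libraries at 30 of 34 CpGs and library 2 at 18. At partly methylated autosomal CpGs the shares are 52.1% and 27.7%, although the stretch also holds CpGs of other levels. The 34 CpGs share fragments and reads, so the counts are a description.

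The tile that holds most of this stretch, chr2:9802001-9803000 (29 CpGs), was at 31.9% and 23.3% against 20.5%, 20.6% and 15.3%. The difference was 8.78 percentage points, with an unadjusted p of 0.035 and an edgeR adjusted p of 0.790, so it did not pass. Without targeted library 1 the difference was 4.49 points. The summed read counts of the tile were 2751 to 5105 per library, where 1 read adds a count at each CpG it spans.

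Further partly methylated tiles of Gata3 had overlapping groups. The tile chr2:9796001-9797000 (8 CpGs), below the first run, was at 79.6% and 63.7% against 55.3%, 71.9% and 63.1%, a spread of over 15 points within each group. The tile chr2:9806001-9807000 (6 CpGs) was at 27.0% and 27.7% against 31.5%, 28.1% and 13.2%. Tiles chr2:9773001-9774000 (3 CpGs) and chr2:9790001-9791000 (4 CpGs) had 25.1% ± 0.331 (SD, n = 2) against 25.2% ± 1.68 (SD, n = 3), and 27.7% ± 4.66 against 28.4% ± 2.46.

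Bcl11b, the factor that marks T-cell commitment, held both unmethylated and methylated tiles, as the other windows did. Dense CpGs near the lower end of the window, 85763 to 88613 bp downstream of the placed start, were methylated. The 62 CpGs from 109153011 to 109155861 averaged 95.2% and 94.5% against 93.8%, 94.1% and 94.0%. The start lay in the opposite state. The run chr12:109240253-109243425 held 115 CpGs at 2.24% to 3.79%, and the run just above it, chr12:109243601-109244754, held 31 CpGs at 2.56% to 3.87%. Another unmethylated run lay downstream of the start, at chr12:109218289-109219161, with 43 CpGs at 2.22% to 2.82%. Of the 28 tested tiles, 15 were over 80%, 7 under 20% and 6 partly methylated.

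The partly methylated tiles of Bcl11b lay between the methylated lower end and the promoter. At chr12:109201001-109202000 (9 CpGs) the level was 67.02% and 56.8% against 51.0%, 53.1% and 48.4%. At chr12:109209001-109210000 (5 CpGs) it was 72.9% and 73.3% against 62.7%, 68.5% and 61.8%. In both tiles the groups did not overlap, with differences of 11.1 and 8.75 percentage points and unadjusted p-values of 0.028 and 0.040, and neither passed (edgeR adjusted p = 0.790 for each). Without targeted library 1 the differences were 6.00 and 8.97 points. At chr12:109189001-109190000 (8 CpGs) the level was 79.9% and 66.8% against 63.2%, 67.2% and 69.1%. The groups overlapped there.

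The other 3 partly methylated tiles had overlapping groups. At chr12:109214001-109215000 (3 CpGs) the level was 70.0% ± 3.83 (SD, n = 2) against 69.6% ± 1.70 (SD, n = 3). At chr12:109215001-109216000 (3 CpGs) it was 19.4% ± 3.30 against 22.1% ± 4.58. At chr12:109229001-109230000 (7 CpGs) it was 71.8% ± 1.25 against 71.7% ± 1.48. Adjacent tiles on the way to the run at 109218289 thus went from about 70% to 20% within 2000 bp in both groups. The lowest unadjusted p of the gene, 0.0096, belonged to the methylated tile chr12:109205001-109206000 (4 CpGs), at 96.6% and 96.5% against 94.2%, 91.0% and 93.7% (edgeR adjusted p = 0.790).

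**Figure D4:**
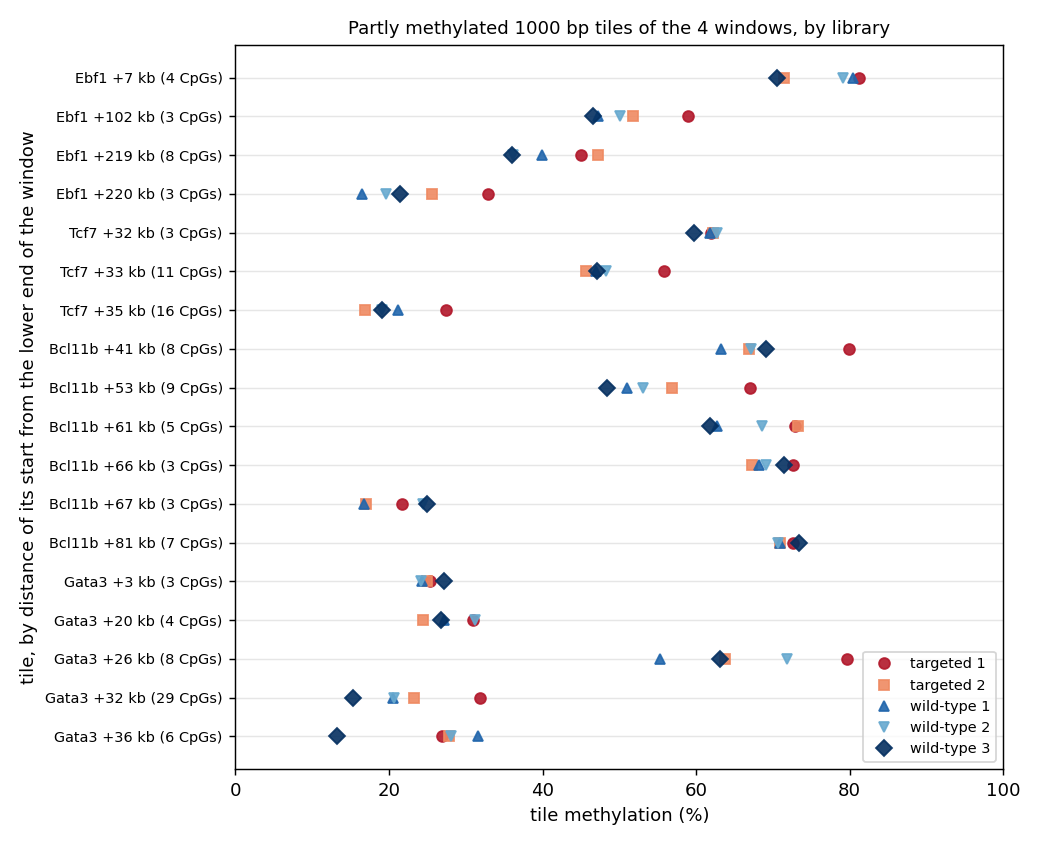
Methylation (%) of the 18 partly methylated 1000 bp tiles of the windows, 1 point per library, with tiles named by gene and by the distance of their start from the lower end of the window. Targeted library 1 (red circles) is the highest library in at least 2 tiles of every gene.

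The comparison between groups asked whether these loci were methylated differently in targeted LSK cells. No tile and no CpG of the windows passed. With edgeR, 0 of 69 tested tiles were called (a difference of 10 points or more with an adjusted p below 0.05), where 0.0166% of all tiles were called. The lowest adjusted p was 0.790. Of 761 tested CpGs 0 were called, for which 25 points or more were asked, where 0.00885% of all CpGs were called. No CpG of the windows differed by 25 points. A further 92 CpGs were fully methylated or fully unmethylated in all 5 libraries and were not tested. limma also called 0 tiles and 0 CpGs.

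At 3 of the 4 genes each targeted library had a higher window mean than every wild-type library. The difference was 1.56 percentage points at Ebf1, at 44.5% ± 1.28 (SD, n = 2) against 42.9% ± 0.377 (SD, n = 3). It was 1.19 points at Bcl11b, at 41.8% ± 0.747 against 40.6% ± 0.207. At Gata3 it was 1.53 points, at 16.8% ± 1.65 against 15.3% ± 0.173, and at Tcf7 it was 0.410 points, at 21.7% ± 0.943 against 21.3% ± 0.387. By exact two-sided permutation of the library labels, p was 0.1 for Ebf1, Bcl11b and Gata3, the smallest p this design allows, and 0.6 for Tcf7. Adjusted over the 4 genes these were 0.133 and 0.6, so none passed. All autosomal CpGs together had a difference of 0.551 points and the same exact p of 0.1. Without targeted library 1 the differences were 0.663 at Ebf1, 0.663 at Bcl11b, 0.369 at Gata3 and -0.257 points at Tcf7, where the direction turned. With CpGs weighted by their reads the differences were larger, at 5.48, 5.27, 4.60 and 4.75 points for Ebf1, Bcl11b, Tcf7 and Gata3. Such a mean also changes with how reads are spread over the CpGs. At Tcf7 the unweighted differences were 0.478 points at CpGs under 20%, 2.06 at partly methylated CpGs and -0.766 at CpGs over 80%. Median coverage in the Tcf7 run was 80 and 181.5 reads in the targeted libraries, against 162, 169 and 117. The part of read spread in the weighted differences was not tested. The median difference of single tiles was 0.602 points at Ebf1, 0.774 at Bcl11b, 0.225 at Gata3 and 1.496 points at Tcf7. Taking instead the difference between the groups' median tile levels gave 7.44 at Ebf1, which is that of the tile at 44529001 alone, 2.27 at Bcl11b, 1.97 at Tcf7 and 4.82 at Gata3.

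At an unadjusted p under 0.05, 6 of the 69 tiles (8.70%) had a higher and 0 a lower targeted level, beside 5.35% and 0.976% of all tiles. These were 3 tiles of Bcl11b, 2 of Ebf1 and 1 of Gata3. Of the tested CpGs 21 were higher and 5 were lower, or 2.76% and 0.657%, beside 2.29% and 0.679% of all CpGs. The CpG shares lie near the background. The tile count turned on single libraries: without targeted library 1 it was 1 higher and 1 lower tile, without targeted library 2 it was 11 higher tiles. It was also 3 without wild-type library 1 and 2 without wild-type library 3, and with limma 3. The count of higher CpGs was 8 and 46 without targeted libraries 1 and 2, and 9, 10 and 13 without wild-type libraries 1, 2 and 3. The groups did not overlap, with the targeted libraries above, in 17 of the 69 tiles (24.6%), where 17.2% of all tiles did so, and with the targeted libraries below in 3, where 5.23% did so. Of the 17 tiles, 9 belonged to Bcl11b, 6 to Ebf1, 1 to Tcf7 and 1 to Gata3.

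**Figure D5:**
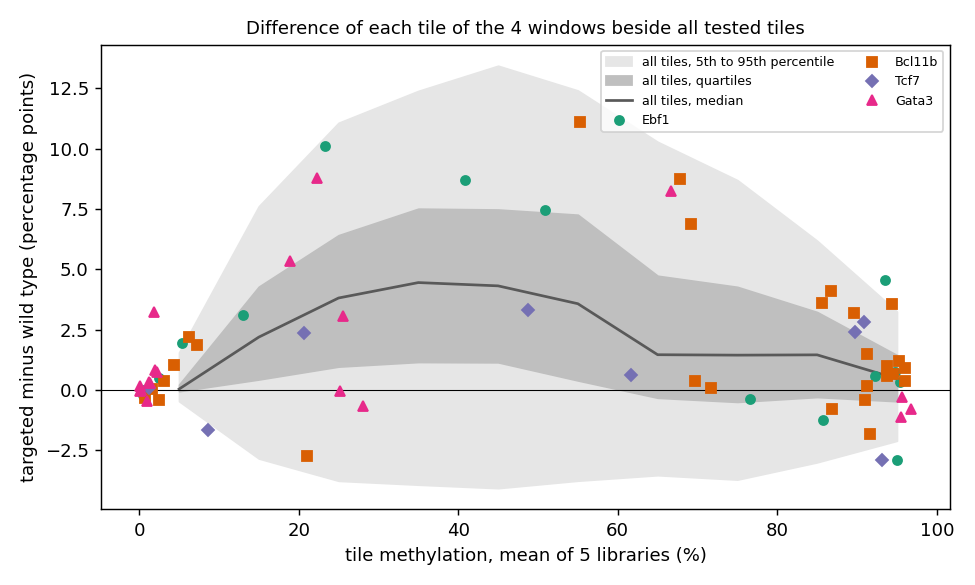
Difference between group means (targeted minus wild type, percentage points) of each of the 69 tested tiles against its mean level (%), over the median, quartiles and 5th to 95th percentiles of all 90368 tested tiles in steps of 10% of level. Of the 69 tiles 59 lie within the 5th to 95th percentiles, 6 above and 4 below, and the median of all tiles is above 0 at intermediate levels.

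Differences were largest at partly methylated CpGs, where targeted library 1 stood apart on all autosomes as well. At the 27 partly methylated CpGs of Gata3 the level was 56.5% and 47.6%, against 45.1%, 46.9% and 44.8%. At the 17 of Ebf1 it was 63.3% and 58.5% against 55.4%, 57.4% and 54.7%, and at the 36 of Bcl11b 63.5% and 59.4% against 56.1%, 57.5% and 57.7%. At the 13 of Tcf7 it was 41.9% and 33.5% against 38.1%, 35.8% and 33.0%. Targeted library 1 was the highest library at all 4 genes. Library 2 was above the wild-type range at Ebf1, Bcl11b and Gata3 and inside it at Tcf7. Over the 68755 partly methylated autosomal CpGs the levels were 58.3% and 52.5% against 52.0%, 51.3% and 52.0%. The group differences were 6.49 points at Gata3, 5.04 at Ebf1, 4.37 at Bcl11b and 2.06 at Tcf7. Without targeted library 1 they were 2.02, 2.64, 2.34 and -2.16 points.

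Site by site, targeted library 1 exceeded all wild-type libraries at 58 of the 93 partly methylated CpGs of the windows (62.4%), and at 52.1% of those on the autosomes. Library 2 did so at 32 (34.4%), against 27.7%. Both did so at 25 (26.9%), against 19.4%, and both lay below all wild-type libraries at 3 (3.23%), against 4.68%. Library 1 had the lowest median coverage in 3 of the 4 windows, but those medians cover CpGs of every level. At single partly methylated CpGs its coverage went both ways. It had 355 reads at chr11:52095735, against 257 to 314 in the other libraries, and 28 at chr11:52096073, against 35 to 85. The part of coverage in the higher levels of library 1 was not tested. Along these 93 CpGs the levels of any 2 libraries went together, with Pearson's r of 0.809 to 0.924 over the 10 pairs of libraries, given as a description, since the CpGs share fragments, reads and genes. Within genes r was 0.888 to 0.955 at Ebf1, 0.784 to 0.918 at Bcl11b and 0.751 to 0.952 at Gata3, and lower at the 13 CpGs of Tcf7, at 0.458 to 0.872.

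Single CpGs with the lowest unadjusted p in each window were small changes at the extremes. At chr11:44759380 in Ebf1 the level was 99.5% (95% Wilson interval 97.0 to 99.9) and 100% (97.2 to 100) against 95.9%, 87.9% and 95.9%. At chr12:109243554 in Bcl11b it was 5.0% (2.15 to 11.2) and 1.66% (0.565 to 4.76), against 0% in each wild-type library. The 150, 156 and 78 reads of those libraries gave upper Wilson limits of 2.50%, 2.40% and 4.69%. At chr11:52096799 in the Tcf7 run the level was 0% in both targeted libraries, against 2.45%, 2.38% and 0.424%. The 158 and 257 reads of the targeted libraries gave upper Wilson limits of 2.37% and 1.47%. At chr2:9804579 in the third Gata3 run the level was 8.82% (3.05 to 23.0) in targeted library 1 and 0% in all others. The 38 to 71 reads of the others gave upper Wilson limits of 5.13% to 9.18%. The edgeR adjusted p was 0.876 at each of these 4 CpGs.

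The CpGs with the largest differences were all partly methylated or close to it. At chr11:44646795 in the first of the 2 neighbouring Ebf1 tiles the level was 32.3% and 25.8% against 4.55%, 18.9% and 5.45%, a difference of 19.4 points on only 22 to 55 reads. At chr11:52095967 in the lower shoulder of Tcf7 it was 33.3% and 47.4% against 25%, 23.1% and 13.3%, or 19.9 points on 12 to 30 reads. At chr12:109201773 in Bcl11b it was 78.3% and 73.1% against 53.8%, 67.9% and 52.1%, or 17.7 points on 71 to 104 reads. At chr2:9802976 in the upstream Gata3 peak it was 56.6% and 49.8% against 43.1%, 36.1% and 36.6%, or 14.6 points on 101 to 274 reads. The 4 CpGs were picked for their size of difference, so the separation of the groups at each of them is a description. The edgeR adjusted p was 0.876 for each.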

How the data were processed

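DNA methylation was measured by ERRBS in 5 LSK libraries, 2 targeted and 3 wild-type, grouped by their titles. The authors' deposited tables list coverage as whole-number read counts and the percent of reads with C and with T for each CpG cytosine and strand. The submitters' processing notes name Bismark and mm9 (NCBIM37); no version is named. The lowest deposited coverage is 10. Total coverage was 122015958 to 151634492 per library.

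Whole reads with and without methylation were obtained by multiplying coverage by percent and rounding; the product fell within 0.01 of a whole number for 99.97% of entries. Strand entries above the highest 0.1% of coverage were left out and strands were merged. All autosomal 1000 bp tiles holding 3 or more CpGs were tested, and likewise each CpG, with edgeR 4.0.16 (quasi-likelihood, a factor for each library, common dispersion; R 4.3.3), with limma 3.58.1 as an alternative, fitted to the log2 ratio of methylated to unmethylated reads after adding 1 to both. Scripts were tested on simulated data. Figures were drawn with matplotlib 3.10.9. Promoters were placed by CpG spacing where exactly 1 placement on the chromosome held at least 10 covered CpGs, except Bcl11b. Of the promoters placed under this rule, 99.5% shared their offset from the table with a neighbouring placed promoter. This share does not include the Bcl11b placement. The text names the partly methylated tiles, the tile and CpG with the lowest p, the CpG with the largest difference and the unmethylated runs of each window. The members, gene lists and tests were chosen with earlier results of these data known. The targeted gene is not reported here.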

Additional observations from a re-analysis of the deposited data

How the results depend on the processing

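Across the alternatives listed for each result, 0 tiles and 0 CpGs of the windows were called, under edgeR and limma alike, with each library left out and with no minimum difference, and 10 unmethylated runs were found with a coverage minimum of 20 and with no upper limit. The window differences, in percentage points, depended on how CpGs were averaged and, where weighted by reads, on how reads were spread over CpGs. With CpGs weighted by reads they were 5.48 at Ebf1, 5.27 at Bcl11b, 4.60 at Tcf7 and 4.75 at Gata3, and as differences between the groups' median tile levels 7.44 (at Ebf1 that of 1 tile alone), 2.27, 1.97 and 4.82; the median tile differences were 0.602, 0.774, 1.496 and 0.225. With 1 library left out they ranged from 0.663 to 2.47 at Ebf1, 0.663 to 1.72 at Bcl11b, -0.257 to 1.08 at Tcf7 and 0.369 to 2.70 at Gata3, lowest without targeted library 1 and highest without targeted library 2. At partly methylated Tcf7 CpGs the range was -2.16 to 6.29. Counts at an unadjusted p under 0.05 ranged from 1 to 11 higher and 0 to 1 lower tiles, and from 8 to 46 higher and 1 to 6 lower CpGs; limma gave 3 higher tiles and 33 higher CpGs, and a minimum of 5 CpGs per tile gave 3 higher tiles. With the replicate block there were 2 higher tiles and 1 lower tile, and the block changed no call. Whether same-numbered libraries form pairs is not known from their numbers. Deviations of same-numbered libraries from their group means correlated at 5.1e-04 and 0.0668 over tiles. These values cannot settle it, because the deviations of the 2 targeted libraries mirror each other. Wild-type library 3 has no partner in the block, whose window differences were 1.47 at Ebf1, 1.26 at Bcl11b, 0.188 at Tcf7 and 1.44 at Gata3. The cause of these shifts was not tested.

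Named tiles whose direction turned with 1 library left out were those at 44434001 (-5.28 to 4.53), 52094001 (-0.197 to 1.27), 52095001 (-1.75 to 8.34), 52097001 (-2.95 to 7.67), 109214001 (-2.33 to 3.09), 109229001 (-0.780 to 0.982), 9773001 (-0.556 to 0.914), 9790001 (-3.96 to 2.64) and 9806001 (-2.44 to 6.72). With the replicate block the tiles at 52094001, 9773001 and 9806001 had differences of -0.197, 0.914 and -2.44. Among the named tiles the adjusted p ranged from 0.362 to 1.0 over the alternatives, and among the named CpGs it was at least 0.714. CpGs at 12 to 30 reads cannot show differences within their intervals.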
